A study of Drosophila mojavensis with 97 samples.

Results

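Lsd-1 (lipid storage droplet 1, *D. mojavensis* gene GI10367, transcript FBtr0161092, gene FBgn0133131) was followed as 1 transcript of the 14528 on the array, across all 97 arrays and all 24 groups of the experiment. The member was taken by its transcript identifier; the gene itself was chosen with earlier results of these data known, its fall from 25 to 35°C among them, so that this fall is not an independent finding. Expression was measured in wild-type adult *Drosophila mojavensis* females about a week old, from 2 Baja California populations (Punta Prieta, San Quintin) and 2 populations labelled Sonora, on the mainland side (Punta Onah, Organ Pipe National Monument or OPNM). The flies were reared on agria or organ pipe cactus and as adults were held for part of a day at 15, 25, or 35°C. Each array held RNA pooled from many whole females, so every value mixes all tissues, and fewer cells of a type cannot be told apart from less RNA per cell. Of the 24 groups, 23 had 4 arrays, and Punta Prieta flies from agria at 35°C had 5.

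Lsd-1 encodes perilipin 1, a protein that coats the surface of lipid droplets, chiefly in the fat body, where insects store triacylglycerol. In *D. melanogaster* it acts as a gate on stored fat: adipokinetic hormone acts through protein kinase A, which phosphorylates Lsd-1 and opens the droplet to hormone-sensitive lipase, and flies that lack Lsd-1 become obese with enlarged droplets. *D. mojavensis* feeds and breeds in fermenting cactus tissue in the Sonoran Desert, where stored lipid is a reserve against starvation.

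Values are log2 intensities, so that a difference of 1 is a doubling of signal. Lsd-1 was a bright transcript, with a mean of 12.68 over the 97 arrays, above 94.7% of all transcripts on the array. Its 97 values ran from 11.43 in an OPNM array from organ pipe cactus at 25°C to 13.30 in a San Quintin array from agria at 25°C. The 24 group means ran from 12.09 to 13.09, which is a 2.0-fold range. Over the 24 groups, population accounted for 30.0% of the variation among the means, host cactus for 23.6%, and temperature for 20.2%. The population by temperature and population by cactus terms added 12.4% and 8.26%, and the remaining terms 3.39% or less each. These shares were not scaled by the number of levels of each factor, and they include the spread between arrays.

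**Figure D1:**
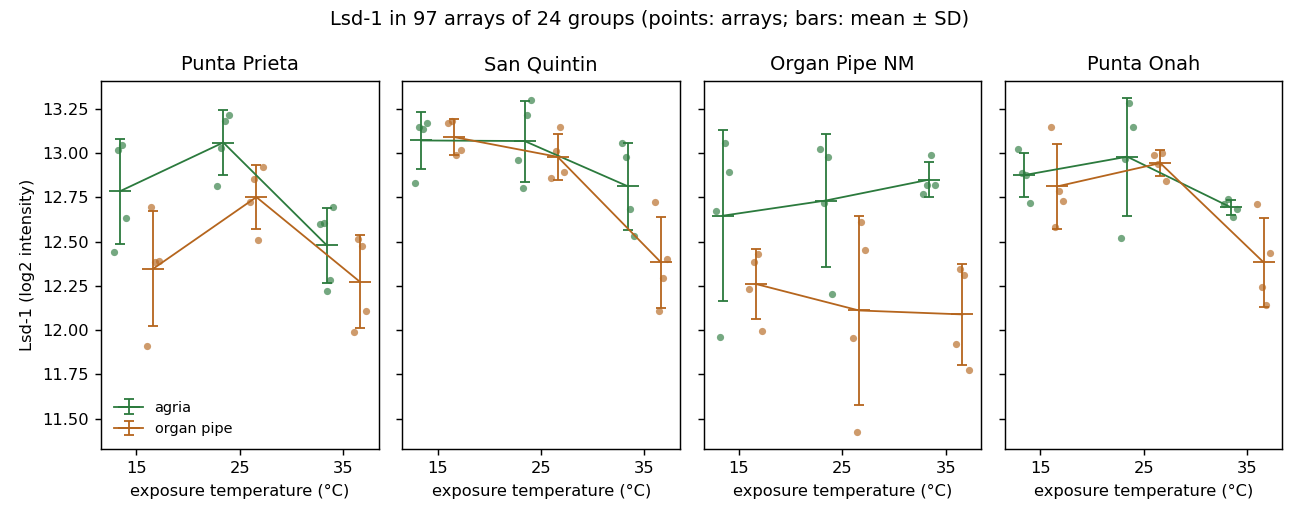
Lsd-1 in every array, with exposure temperature (°C) on the x axis, log2 intensity on the y axis, 1 panel for each population, green for agria and brown for organ pipe cactus; points are arrays and bars are group means ± SD. The organ pipe means of OPNM flies lie between 12.09 and 12.26 at all 3 temperatures, below every other group mean.

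Temperature was compared to ask how the exposure changed expression, with the 24 groups weighted equally. Lsd-1 was lower at 35°C than at the milder temperatures. The mean was 12.74 at 15°C (SD 0.37, n = 32), 12.83 at 25°C (SD 0.39, n = 32), and 12.50 at 35°C (SD 0.32, n = 33), and the arrays of the 3 temperatures overlapped widely. From 25 to 35°C Lsd-1 fell by 0.33 on the log2 scale (SE 0.06, limma adjusted p = 0.000155), which is 1.26-fold. In that comparison 12.5% of all transcripts passed the adjusted p threshold of 0.01, 7.02% of all transcripts being lower at 35°C like Lsd-1, and 5.29% of all transcripts differed by more than Lsd-1 did. From 15 to 35°C it fell by 0.24 (SE 0.06, adjusted p = 0.00988), a call close to the threshold in a comparison where 18.0% of transcripts passed. From 15 to 25°C the difference was 0.09 (SE 0.06, adjusted p = 0.485, 6.07% of transcripts past the threshold). The 3 temperature comparisons share their arrays. The 25 to 35°C call was lost without the arrays numbered 3 (adjusted p = 0.0143) or 4 (0.0166) of every group, or without Punta Prieta (0.0185). In OPNM flies from organ pipe cactus at 35°C 2 arrays are labelled 3 and none 2, so that leaving out number 3 removed 2 arrays of that group and leaving out number 2 removed none. The 15 to 35°C call was lost without any 1 of the 4 numbers, with adjusted p between 0.0152 and 0.0926.

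Within population and cactus, the fall from 25 to 35°C was seen in Punta Prieta, San Quintin, and Punta Onah means, and was near 0 or turned in OPNM. In Punta Prieta flies from agria the 4 values at 25°C were 12.82, 13.03, 13.18, and 13.22. The 5 values at 35°C were 12.60, 12.60, 12.22, 12.28, and 12.69, all below them. The means differed by 0.58 (SE 0.17, adjusted p = 0.0250). In San Quintin flies from organ pipe cactus the values were 12.86, 13.01, 13.15, and 12.89 at 25°C and 12.72, 12.11, 12.30, and 12.40 at 35°C. These 2 sets did not overlap either, and the means differed by 0.60 (SE 0.18, adjusted p = 0.0298). In Punta Onah flies from organ pipe cactus the values were 12.99, 12.94, 13.00, and 12.84 at 25°C and 12.71, 12.24, 12.14, and 12.43 at 35°C. This was the third combination without overlap, with a difference of 0.56 (SE 0.18, adjusted p = 0.0448). Over the 8 combinations of population and cactus the mean was lower at 35°C in 7, with no overlap of the arrays in 3, and over all transcripts 5.41% of such combinations had the 25°C arrays wholly above the 35°C arrays. None of the 8 single steps passed the threshold, while 4 had an unadjusted p under 0.05.

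OPNM flies showed no such step. On agria their Lsd-1 values were 13.02, 12.72, 12.98, and 12.21 at 25°C and 12.77, 12.82, 12.99, and 12.82 at 35°C. The 35°C mean was higher by 0.12 (SE 0.18, adjusted p = 0.811). On organ pipe cactus the difference was 0.02 in the other direction (SE 0.18, adjusted p = 0.972). Averaged over cacti, the step from 25 to 35°C in Punta Prieta was a fall of 0.53 (SE 0.13, adjusted p = 0.00299), while the falls of 0.43 in San Quintin (SE 0.13, adjusted p = 0.0276) and 0.42 in Punta Onah (SE 0.13, adjusted p = 0.0292) did not pass the threshold, and OPNM rose by 0.05 in its mean (SE 0.13, adjusted p = 0.904). Over all transcripts 4.47% of the pairs of population and temperature levels passed. The test of the difference itself, the limma moderated F test of populations within regions by temperature, gave an adjusted p of 0.209 (0.0241 unadjusted), so that a different temperature response among populations did not pass. Only 0.0344% of transcripts passed for that term. With OPNM, the population without a fall, left out, the fall was necessarily larger, 0.46 over the other populations (adjusted p = 2.10e-07). This omission was chosen after seeing the data, so that its p-value adds nothing to the test above.

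The temperature order also differed in the means at 15°C. San Quintin flies were high at 15°C on both cacti, with organ pipe values of 13.17, 13.18, 12.99, and 13.02 and agria values of 12.83, 13.15, 13.13, and 13.17. Punta Prieta flies from organ pipe cactus at 15°C were at 11.91, 12.70, 12.38, and 12.39, below all 8 of those values. Lsd-1 in San Quintin flies on organ pipe cactus fell by 0.71 from 15 to 35°C (SE 0.18, adjusted p = 0.00707), and this was the only 1 of 24 single temperature steps past the threshold. The arrays did not overlap, where 6.23% of the 15 to 35°C steps over all transcripts had the 15°C arrays wholly above. In Punta Prieta the 25°C mean was the highest of the 3 temperatures on both cacti, and in San Quintin the 15°C mean was. However, 0 of the 8 steps from 15 to 25°C passed the threshold, so that this order was not resolved. On agria the San Quintin means at 15 and 25°C differed by only 0.003 (SE 0.18, adjusted p = 0.996).

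**Figure D2:**
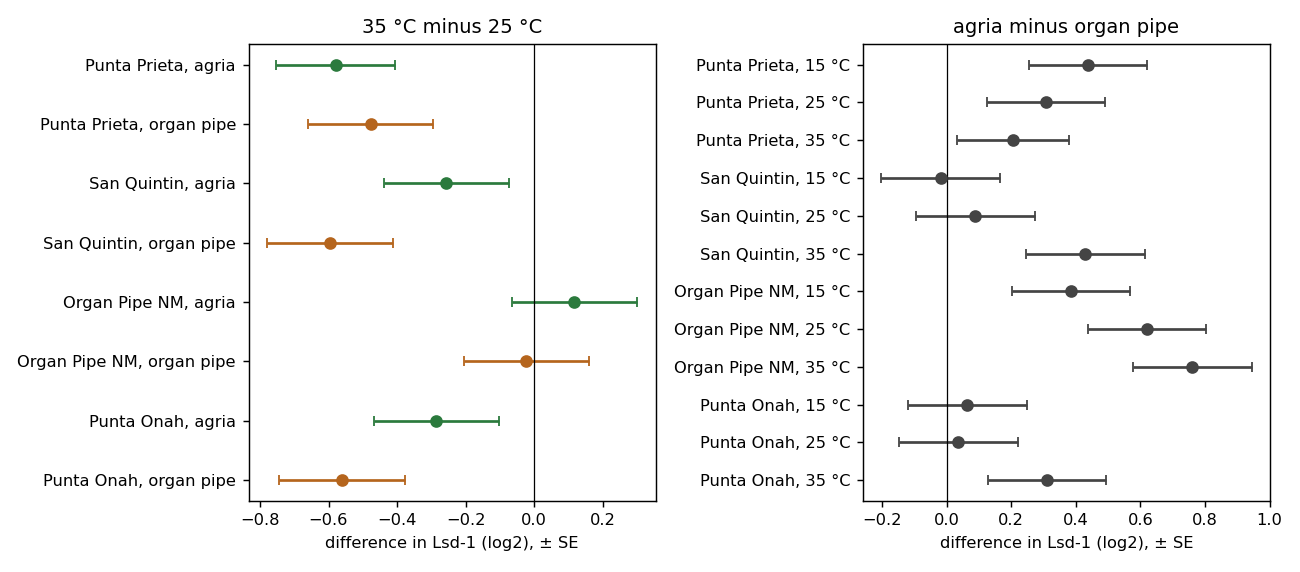
Left, the difference in Lsd-1 between 35 and 25°C (log2, x axis) in each of 8 combinations of population and cactus (green agria, brown organ pipe); right, agria minus organ pipe in each of 12 combinations of population and temperature. Points are differences of group means and bars are ± SE of the fit; 7 of 8 points on the left lie below 0, and 11 of 12 on the right lie above 0.

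Host cactus was compared to ask how the rearing substrate carried over into adult expression. Lsd-1 was higher in flies reared on agria, with a mean of 12.84 (values from 11.96 to 13.30, median 12.83, n = 49), than on organ pipe cactus, with a mean of 12.54 (11.43 to 13.18, median 12.51, n = 48). The arrays of the 2 cacti overlapped over most of their range, and the low end was held by organ pipe arrays. The difference was 0.30 (SE 0.05, adjusted p = 2.17e-05), which is 1.23-fold. In that comparison 17.0% of transcripts passed the threshold, 14.5% of all transcripts higher on agria, and 6.67% differed by more than Lsd-1. The split of all calls depended on scaling, with 85.6% higher on agria in the deposited values and 50.0% once each array was centred on its median, where Lsd-1 was still higher on agria by 0.26 (adjusted p = 0.000391).

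The agria mean was above the organ pipe mean in 11 of 12 combinations of population and temperature, and the distance was widest in OPNM flies at 25 and 35°C; at 15°C it was 0.44 in Punta Prieta (SE 0.18, adjusted p = 0.149) and smaller elsewhere. At 35°C the OPNM agria arrays were at 12.77, 12.82, 12.99, and 12.82 and the organ pipe arrays at 11.92, 12.34, 12.31, and 11.78. The organ pipe arrays at 12.34 and 12.31 are both labelled 3, and whether they are separate samples is not known. Every agria value was above every organ pipe value, and the difference of 0.76 (SE 0.18, adjusted p = 0.00325) was the only 1 of the 12 past the threshold. It was also the only 1 of the 12 without overlap, where 3.90% of such combinations over all transcripts had agria wholly above. At 25°C the OPNM organ pipe arrays were at 11.96, 11.43, 12.61, and 12.45, and the difference from agria was 0.62 (SE 0.18, adjusted p = 0.0221). At 15°C the OPNM agria arrays were at 12.67, 11.96, 13.06, and 12.89 and the organ pipe arrays at 12.23, 12.38, 12.43, and 11.99, with a difference of 0.38 (SE 0.18, adjusted p = 0.228). In the single opposite combination, San Quintin at 15°C, the means differed by 0.02 (SE 0.18, adjusted p = 0.977).

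Averaged over temperatures, the cactus difference was 0.59 in OPNM (SE 0.11, adjusted p = 4.01e-05), 0.32 in Punta Prieta (SE 0.10, adjusted p = 0.0453), 0.17 in San Quintin (SE 0.11, adjusted p = 0.421), and 0.14 in Punta Onah (SE 0.11, adjusted p = 0.540). Only the OPNM difference passed, and over all transcripts 4.79% of the pairs of population and cactus levels did. The limma moderated F test of populations within regions by cactus had an adjusted p of 0.167 (0.00863 unadjusted), and 0.0895% of transcripts passed for it, so that the size of the cactus difference was not shown to differ among populations. Without OPNM the agria difference was 0.21 (adjusted p = 0.00543). By temperature it was 0.22 at 15°C (SE 0.09, adjusted p = 0.154), 0.26 at 25°C (SE 0.09, adjusted p = 0.0640), and 0.43 at 35°C (SE 0.09, adjusted p = 0.000627). The temperature by cactus term did not pass (limma adjusted p = 1.0, 0.237 unadjusted). The other 4 interaction terms had unadjusted values of 0.0796 or more and adjusted values of 0.718 or more, and 0% of transcripts passed for these 5 terms.

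The lowest Lsd-1 was found in flies that had both organ pipe rearing and the 35°C exposure. Over populations, flies from organ pipe cactus at 35°C had a mean of 12.28 (11.78 to 12.72, median 12.31, n = 16). Those from agria at 25°C had a mean of 12.96 (12.21 to 13.30, median 13.00, n = 16), higher by 0.68 (SE 0.09, adjusted p = 4.64e-08). Of the 15 pairs of temperature and cactus levels, 5 passed the threshold, and these were the 5 that set organ pipe at 35°C against each of the other levels. Over all transcripts 7.81% of such pairs passed.

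Populations were compared within and between regions. The order of the population means was OPNM at 12.45 (11.43 to 13.06, median 12.44, n = 24), Punta Prieta at 12.62 (11.91 to 13.22, median 12.60, n = 25), Punta Onah at 12.78 (12.14 to 13.28, median 12.76, n = 24), and San Quintin at 12.90 (12.11 to 13.30, median 12.98, n = 24). All 4 ranges overlapped, and no neighbours in this order differed past the threshold (adjusted p between 0.181 and 0.413). OPNM was lower than Punta Onah by 0.33 (SE 0.07, adjusted p = 0.00141), in a comparison where 3.90% of transcripts passed. Punta Prieta was lower than San Quintin by 0.28 (SE 0.07, adjusted p = 0.00756), where only 1.09% of transcripts passed. The largest distance was between San Quintin and OPNM, 0.45 (SE 0.07, adjusted p = 7.50e-06, 7.63% of transcripts past the threshold), or 1.37-fold.

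Both differences within regions rested on some cells of the design more than on others. On organ pipe cactus OPNM was below Punta Onah by 0.56 (SE 0.11, adjusted p = 0.000105), and on agria by 0.11 (SE 0.11, adjusted p = 0.664). At 25°C on organ pipe cactus the 4 OPNM values, 12.61 at the highest, lay below all 4 Punta Onah values, 12.84 at the lowest, and the difference was 0.83 (SE 0.18, adjusted p = 0.00107). Over all transcripts 3.66% of such combinations had OPNM wholly below and 4.81% wholly above. At 35°C on agria the order was opposite, with every OPNM array, 12.77 at the lowest, above every Punta Onah array, 12.74 at the highest, and a difference of 0.16 (SE 0.18, adjusted p = 0.731). Punta Prieta was below San Quintin in all 6 combinations of cactus and temperature, by 0.01 to 0.74, and the 1 past the threshold was organ pipe at 15°C (0.74, SE 0.18, adjusted p = 0.00419). The Punta Prieta call was lost without the arrays numbered 1, 3, or 4 of every group (adjusted p = 0.194, 0.0388, and 0.0406), and the OPNM call without those numbered 1, 2, or 4 (0.0265, 0.0281, and 0.0251).

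Baja California flies had a mean of 12.76 and mainland flies 12.61, a difference of 0.14 (SE 0.05, adjusted p = 0.0850) that did not pass, in a comparison where 9.68% of transcripts did. It was 0.08 (adjusted p = 0.581) without the arrays numbered 2 and 0.20 (adjusted p = 0.0544) without those numbered 3. Region accounted for 5.31% of the variation among the 24 means, which is a part of the 30.0% for the 4 populations. The 2 populations of a region lay farther apart (0.28 and 0.33) than the regions did. The region test takes arrays, not populations, as replicates.

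**Figure D3:**
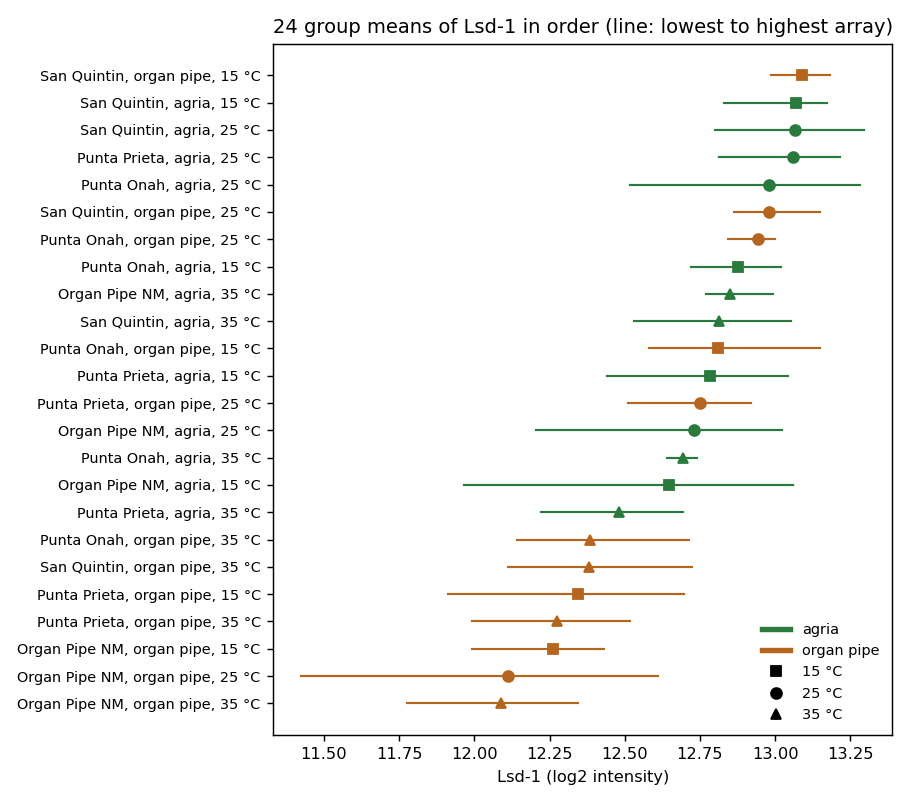
The 24 group means of Lsd-1 (log2 intensity, x axis) in order from the lowest at the bottom; each line runs from the lowest to the highest array of the group, colours give the cactus and symbols the temperature. The 7 lowest groups were all reared on organ pipe cactus, and neighbours in the order differ by 0.17 at most.

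Ordered by mean, the 7 lowest of the 24 groups were all reared on organ pipe cactus, and they held the 3 OPNM groups and all 4 groups at 35°C from that cactus. The highest were San Quintin on organ pipe cactus at 15°C (13.09, SD 0.10), San Quintin on agria at 15°C (13.07, SD 0.16) and 25°C (13.07, SD 0.23), and Punta Prieta on agria at 25°C (13.06, SD 0.18). Of 23 neighbouring pairs 0 passed the threshold, 0 had an unadjusted p under 0.05, and the widest gap was 0.17. Sorting by these same means keeps neighbours close, against an SE near 0.18. That outcome was therefore set by the sorting, and no conclusion is drawn from it. Of all pairs of the 24 groups 46 passed (2.68% of such pairs did over all transcripts). All of them differed by 0.68 or more, past the 1.5-fold filter (0.58). With that SE smaller differences did not pass, so the size follows from the threshold. By population, temperature, or cactus alone, 0 differences met that filter. Of those 46 pairs, 30 held an OPNM organ pipe group. The OPNM organ pipe group at 35°C counted its 2 arrays labelled 3 as separate. By cactus, 30 of the 46 set an agria group against an organ pipe group, with agria higher in 30 of 30. The order fixed that direction. Only the 7 lowest groups, all from organ pipe cactus, lay 0.68 or more below another group. The pairs also share groups, so that they are not separate observations. Only 7 of the 46 were within a population, and 5 groups in the middle of the order were in none.

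The spread between arrays of a group was wide for a transcript this bright. The residual SD of Lsd-1 was 0.26 (73 degrees of freedom), larger than that of 49.7% of all transcripts, but larger than that of 92.1% of the 1298 transcripts whose mean lay within 0.5 of its own. The group means varied too, with an SD of 0.32 that was larger than in 95.9% of those 1298 transcripts. Group SDs ran from 0.04 in Punta Onah flies from agria at 35°C (12.71, 12.74, 12.64, and 12.69) to 0.54 in OPNM flies from organ pipe cactus at 25°C, with a median of 0.23. Pooled within groups, the SD was 0.36 in OPNM, 0.25 in Punta Prieta, 0.21 in Punta Onah, and 0.20 in San Quintin, and it was 0.26 on either cactus. OPNM flies thus held both the lowest mean and the widest spread between arrays, and the differences among these SDs were not tested. Leaving out any single array moved the fall from 25 to 35°C between 0.31 and 0.36 and the agria difference between 0.28 and 0.32. For both, the OPNM array from organ pipe cactus at 25°C at 11.43 set an end of that range.

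As for the arrays as a whole, medians lay between 9.81 and 10.10 and interquartile ranges between 2.51 and 3.42, and no 2 arrays correlated above 0.996. In 6 arrays the deviations from the group means over all transcripts had a root mean square above 2 times the median array's, all 6 of them Baja California flies and 5 of them at 35°C. Without these 6 arrays the fall from 25 to 35°C was 0.32 (adjusted p = 0.000732) and the agria difference 0.33 (adjusted p = 7.43e-06), while the 15 to 35°C and the Punta Prieta calls were lost (adjusted p = 0.0179 and 0.0129).

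Some tissue markers moved with the same factors, and others did not pass the threshold. Of 15 marker symbols, 9 could be paired with a transcript, through tables of transcripts the study singled out, so they are not a neutral sample; none of the 3 for the fat body, the tissue that holds most Lsd-1, was among them, so that the fat body share of the RNA could not be followed. Both gut serine proteases, Jon25Bi and epsilonTry, were higher on agria (0.56 and 0.44), as 14.5% of all transcripts were, and their averaged level over arrays was 12.05 (10.38 to 13.18) on agria and 11.57 (9.84 to 12.79) on organ pipe cactus. Of the 5 flight muscle genes 4 were higher on agria and 1 did not pass (again beside 14.5% of all transcripts), with averaged levels of 12.39 (11.41 to 12.95) and 12.09 (10.92 to 12.70). At 35°C the gut pair averaged 11.21 (10.02 to 12.05) against 11.89 (9.84 to 12.92) at 25°C, with epsilonTry lower by 1.02 and Jon25Bi not past the threshold. The vitelline membrane genes Vm26Aa and Vm26Ab, made by ovarian follicle cells, were both lower at 35°C than at 25°C (0.58 and 0.60). Their averaged levels were 12.81 (11.57 to 13.70) and 13.38 (12.91 to 13.80). Of the 5 flight muscle genes 1 was lower at 35°C than at 25°C (wupA, 0.19) and 4 did not pass. From 25 to 35°C 7.02% of all transcripts were lower past the threshold. By cactus neither vitelline membrane gene passed (adjusted p = 0.210 and 0.0451). At 35°C against 15°C the gut pair was lower (0.68 and 1.63), as was 1 of 5 flight muscle genes (wupA, 0.21). The vitelline membrane pair was higher (1.60 and 1.02), and 18.0% of all transcripts passed in either direction. In OPNM against Punta Onah, 1 of 5 flight muscle genes was lower (Act88F, 0.90) and 1 higher (TpnC41C, 0.25), and epsilonTry was lower by 0.85. Jon25Bi and the vitelline membrane pair did not pass there, and 3.90% of all transcripts did. In Punta Prieta against San Quintin 2 of 5 flight muscle genes were higher (wupA, 0.24, and TpnC41C, 0.31). None of the other markers passed, and 1.09% of all transcripts did. The part of these shifts in the Lsd-1 differences was not tested.

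Other genes of lipid storage and use were then set beside Lsd-1. Of 37 such genes listed, 5 could be paired with a transcript, Lsd-1 included, through the same tables as the markers; no gene of adipokinetic hormone signalling or of fatty acid oxidation was paired. On agria 3 of the other 4 were higher and 1 did not pass, where 14.5% of all transcripts were higher, with a median difference of 0.17 beside -0.03 over all transcripts. Their choice through tables of singled-out transcripts bears on that count. LpR1, a lipophorin receptor that takes up circulating lipid, was higher on agria by 0.30 (SE 0.05, adjusted p = 1.13e-05). Gpdh, which makes the glycerol 3-phosphate backbone of triacylglycerol, was higher by 0.18 (SE 0.03, adjusted p = 1.31e-05). ATPCL, the ATP citrate lyase that supplies acetyl-CoA for fatty acid synthesis, was higher by 0.17 (SE 0.04, adjusted p = 0.000448). Pect, an enzyme of phosphatidylethanolamine synthesis, differed by 0.02 (SE 0.03, adjusted p = 0.721).

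None of the other 4 paired genes passed the threshold with temperature. The paper names further lipid genes as lower at the highest temperature than at the middle one, among them the adipokinetic hormone receptor and midway. Those genes were not among the paired ones, so that Lsd-1 was not shown to be alone among lipid genes in its fall. From 25 to 35°C 0 of 4 passed the threshold, where 12.5% of all transcripts did, so that 4 genes are too few to set them apart. The median of their 25°C minus 35°C differences was -0.01 beside 0.02 over all transcripts. LpR1 had the opposite sign, 0.23 higher at 35°C (SE 0.06, adjusted p = 0.0101), just outside the threshold. Gpdh was 0.08 lower at 35°C than at 25°C (SE 0.04, adjusted p = 0.221) and 0.13 lower than at 15°C (SE 0.04, adjusted p = 0.0120), the direction of Lsd-1 and also just outside the threshold. Differences between these genes and Lsd-1 were not tested. In OPNM against Punta Onah, LpR1 was lower by 0.33 (SE 0.07, adjusted p = 0.00113), as Lsd-1 was, and the other 3 did not pass. Over all transcripts 3.90% passed there. Between Punta Prieta and San Quintin 0 of 4 passed, where 1.09% of all transcripts did. Baja California flies had higher Gpdh (0.17, SE 0.03, adjusted p = 3.99e-05) and ATPCL (0.15, SE 0.04, adjusted p = 0.00406) than mainland flies. In that comparison Lsd-1 did not pass and 9.68% of all transcripts did.

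**Figure D4:**
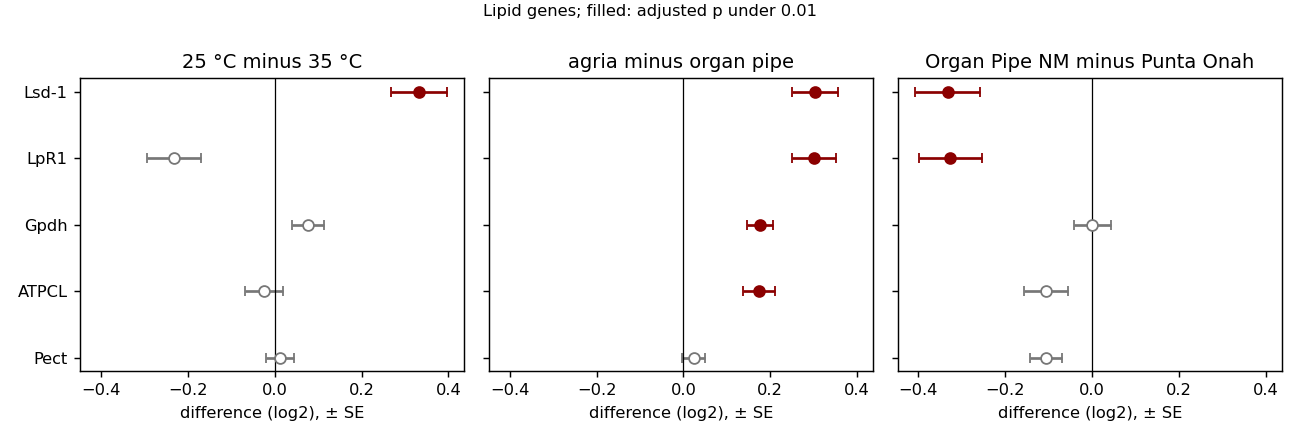
Differences (log2, x axis, ± SE of the fit) of Lsd-1 and the 4 other paired lipid genes in 3 comparisons; filled points have an adjusted p under 0.01. On agria 4 of the 5 genes are filled, and from 25 to 35°C only Lsd-1 of these 5 is.

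The transcripts whose 24 group means were most like those of Lsd-1 were found by Pearson correlation over all 14527 others, as a description over 24 means that share their arrays. A correlation above 0.8 was held by 161 transcripts, and one below -0.8 by 44. The 2 highest were FBtr0168909 (r = 0.94) and FBtr0173550 (r = 0.92), which have no gene name in the tables used here. Over the deviations of the 97 arrays from their group means, which the group pattern does not enter, their correlations with Lsd-1 were 0.69 and 0.68. The highest of the 567 named transcripts was CG9649 (GI24542), with r = 0.91 over means and 0.52 over deviations. CG9649 was lower at 35°C than at 25°C by 0.28 and higher on agria by 0.21 (adjusted p = 0.000236 and 0.000980). It was picked for its likeness to Lsd-1, so that these shared directions are not independent findings.

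CG13912 (GI12602) followed with r = 0.88 over means, and its group means spanned a wider range, 1.88 against 1.0 for Lsd-1. Vha14 (GI23969), a subunit of the vacuolar proton pump, had r = 0.85 over a narrower range of 0.48. CG10178 (GI18315) had r = 0.85, and Tsp29Fa (GI17425), a tetraspanin membrane protein, had r = 0.84. These last 2 had the closest deviations within groups among the 5 named ones, 0.69 and 0.78. From 25 to 35°C CG10178 passed the threshold too (adjusted p = 0.00194). CG13912, Vha14, and Tsp29Fa did not (adjusted p = 0.0497, 0.0351, and 0.191). Among the 5, only Vha14 did not pass by cactus (adjusted p = 0.0118). At the other end FBtr0165782 and FBtr0167448 had r of -0.90 and -0.88. The lowest named transcripts were CG15251 (GI14613, -0.70), kto (GI11646, -0.63), which encodes a subunit of the Mediator complex, and zf30C (GI20085, -0.61), a zinc finger protein gene. Of these, kto was higher at 35°C than at 25°C by 0.17 (adjusted p = 0.000135) and did not differ past the threshold by cactus (adjusted p = 0.965). As kto was picked for being unlike Lsd-1, its opposite direction is not an independent finding.

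**Figure D5:**
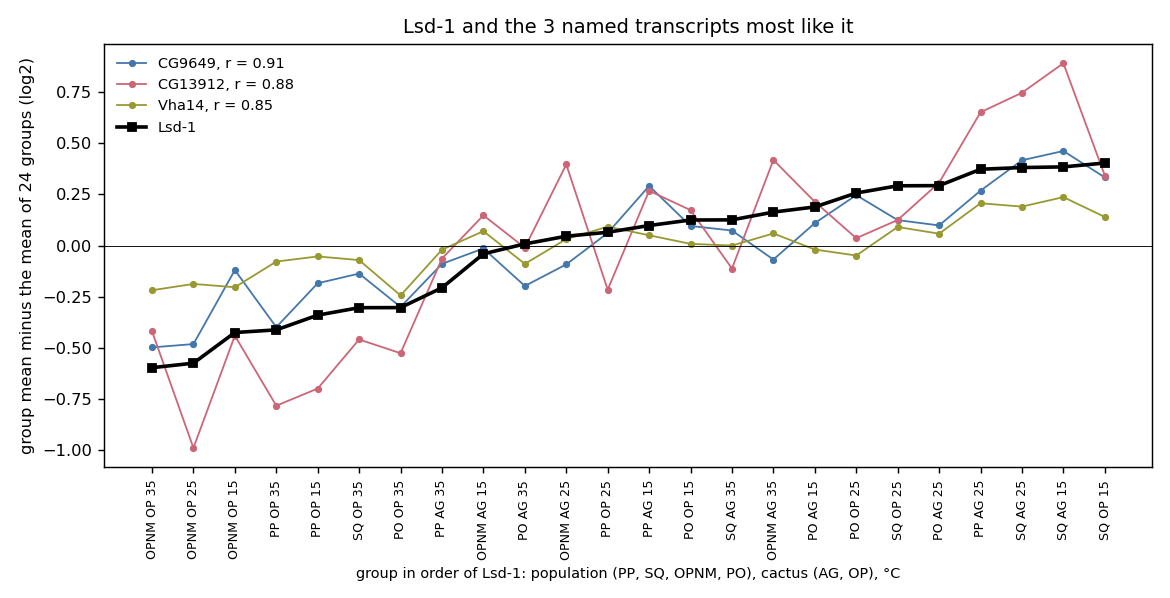
Group means minus the mean of the 24 groups (log2, y axis) for Lsd-1 and the 3 named transcripts most like it, with the 24 groups on the x axis in order of Lsd-1 (population, cactus, and temperature in °C). CG9649 tracks Lsd-1 with r = 0.91, CG13912 spans a wider range, and Vha14 a narrower one.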

How the data were processed

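Cy3-labelled cDNA of 97 samples was hybridized to NimbleGen one-color arrays. The authors normalized spot intensities by quantiles (NimbleScan) and used RMA to reduce several probes to 1 value for a transcript. The deposited values, log2 intensities, are 1 per transcript and array, used here with no further normalization or filter; raw signals and background were not used here. No counts underlie them, and the number of arrays limits the precision. Groups came from sample titles. limma 3.58.1 in R 4.3.3 fitted 1 mean for each of 24 groups over all arrays, and p-values of 483 pairwise comparisons by 14528 transcripts were adjusted together (Benjamini-Hochberg, threshold 0.01). A factor level was the equally weighted mean of its groups, and 7 interaction terms were tested by moderated F tests adjusted within each term. The fit was run on simulated data with planted differences larger than those of Lsd-1 by temperature, cactus, or population. Recovery of differences as small as these was therefore not tested. P-values measure the spread between arrays; slide and scan batches are not in the labels and were not tested. Gene names came from the study's tables (568 transcripts with a *D. melanogaster* symbol). Named genes were Lsd-1, every listed lipid gene paired with a transcript, and the transcripts most and least like Lsd-1 over the group means (the 5 highest and 3 lowest with a name, and the 2 highest and 2 lowest by identifier); tissue markers came from a separate list. The member, the lists, and the alternatives were chosen with earlier results of these data known.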

Additional observations from a re-analysis of the deposited data

Results flagged for a closer look

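Each of the 24 groups was searched for an array far from the others, and chance alone marks about 1 in 20 groups. In 1 group an Lsd-1 value stood apart: in San Quintin flies reared on agria at 15°C, replicate 1 was at 12.83 and the other 3 arrays between 13.13 and 13.17, so that the gap was 0.891 of the range of the group, above the limit of 0.829 for 4 arrays. None of the 7 interaction terms passed the threshold for Lsd-1.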

How the results depend on the processing

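The alternatives were an unmoderated fit, adjustment within each comparison, repeated quantile normalization, median centring, omission of the dimmest 25% of transcripts, array weights, the interquartile range as a covariate, the replicate number as a block, only the arrays compared, and leaving out each replicate number; leaving out 6 arrays that stood apart, or each population, was chosen after seeing the data. No alternative reversed a direction. The 15 to 35°C fall no longer passed without moderation (-0.24, adjusted p = 0.0107), after repeated quantile normalization (-0.22), after median centring (-0.21), without the 6 arrays (-0.23), and without Punta Prieta (-0.26), San Quintin (-0.16), or Punta Onah (-0.22); leaving out replicate numbers gave -0.28 to -0.22. The 25 to 35°C fall no longer passed without Punta Prieta (-0.27), and ran from -0.38 to -0.28 without a replicate number. The agria difference passed in every alternative, at 0.30 to 0.32 without a replicate number.

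Punta Prieta minus San Quintin no longer passed with adjustment within the comparison (-0.28, adjusted p = 0.0280) or without the 6 arrays (-0.29), and ran from -0.35 to -0.20 without a replicate number. OPNM minus Punta Onah ran from -0.45 to -0.28, and Baja California minus mainland from 0.08 to 0.20. Array weights, which ran from 0.00272 to 277, brought Baja California minus mainland past the threshold (0.13, adjusted p = 0.00891), and likewise populations within regions by cactus (adjusted p = 0.00565), so that 1 interaction term passed. The 46 pairs of groups became 96 with array weights, 30 with median centring, and 12 to 25 without a replicate number. The 6 calls of the other lipid genes became 11 with array weights and 3 to 6 without a replicate number. Median centring also moved the share of calls higher at 15 than at 25°C from 71.8% to 58.3%, and at 15 than at 35°C from 63.8% to 52.7%. Repeated quantile normalization moved the share higher on agria to 72.3% and the share higher in Punta Prieta than San Quintin from 53.8% to 39.7%. It shifted the median of all transcripts by less than 0.1. The cause of these changes was not tested.

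Replicate numbers did not pair the arrays: deviations from group means correlated by -0.01 on average between arrays of the same number and 0.01 between others. With the number as a block, the 25 to 35°C fall was -0.34 and the agria difference 0.30, none of the 7 main comparisons or 7 interaction terms of Lsd-1 changed its call, and 47 pairs passed in place of 46. Values of a single array were not refitted for their calls.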
